A study of Mus musculus with 22 samples.

Results

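The genes described here are the nucleolar, rRNA processing and RNA polymerase I genes in EG lines (embryonic germ cells) and ES lines (embryonic stem cells) of the mouse, measured on 22 expression arrays. They were chosen as a list of 40 named genes, of which 39 had a probe set matched to that gene alone, out of 19938 genes measured. Noc2l had no such probe set and was not analysed here. The series compared lines kept in serum with lines kept in a serum-free medium with 2 kinase inhibitors (2i), and EG with ES lines. EG lines came from primordial germ cells of embryos at day 8.5, and all lines carried a mixed background of the strain 129SvEv with the Oct4-delta-PE-GFP transgene, a green reporter driven by a germ cell and pluripotency enhancer. The EG FCS group (4 lines, 1 female and 3 male) grew in fetal calf serum and LIF, the self-renewal cytokine, on mouse embryonic fibroblast feeders. The EG 2i group (4 lines, 3 female and 1 male) grew in N2B27 medium on laminin with LIF, CHIR99021, which blocks the kinase GSK3, and PD0325901, which blocks the kinase MEK. The EG 2is group (4 lines, 2 female and 2 male) spent its first 2 days in serum and was then kept in 2i. The ES FCS and ES 2i groups (5 lines each, 2 female and 3 male in each) grew in the same 2 media, and the series text says that ES lines were both derived in one medium and moved between media. LIF was thus shared by all groups, while serum, feeders and the absence of inhibitors came together in the FCS groups and cannot be told apart here.

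Ribosome biogenesis begins in the nucleolus, where RNA polymerase I copies the ribosomal DNA into a long precursor RNA. Small nucleolar ribonucleoproteins (snoRNPs) guide methylation and pseudouridylation of this precursor, processing factors cleave it and fold it with ribosomal proteins, and separate sets of factors mature the small and the large subunit. The transcription factor Myc, with its partner Max, binds the sequence CACGTG (an E-box) and is known as an activator of many of these genes, and rapidly dividing stem cells are known for large, active nucleoli. Mycn, the paralogue of Myc, binds the same sequence.

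Each array is 1 line, read as log2 values of 28853 probe sets, and array medians ranged from 5.54 to 5.62. Pairs of arrays within a group correlated at 0.979 to 0.998 over probe sets, and no pair was identical. All EG arrays and 2 of 5 in each ES group were in batch 1, and the other 3 of each ES group in batch 2. The cell-type label of all 10 ES arrays reads EGCs, while their titles and source names say ES, and they were taken as ES lines. The labels do not say that lines of a group were derived independently, so a p-value here reflects only the spread among these arrays, which may be technical.

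Of the 39 genes 35, 35 and 36 had lower estimates in EG 2i, EG 2is and ES 2i than in serum, and none was called higher. Against EG FCS, 19 of the 39 were called lower in EG 2i, where 12.5% of all genes were called lower and 11.4% higher. In EG 2is 24 of the 39 were called lower, where 12.9% of all genes were lower and 12.7% higher. In ES 2i against ES FCS 25 of the 39 were called lower, where 14.9% of all genes were lower and 16.6% higher. A gene was called at an adjusted p under 0.05, from limma on log2 values with Benjamini-Hochberg adjustment over all genes. The differences were small: the median log2 difference of the 39 genes was -0.28, -0.30 and -0.30 in the 3 comparisons, against medians of 0.01, -0.01 and 0.00 over all genes. EG 2i and EG 2is are both set against the same 4 EG FCS arrays, so those 2 counts are not independent of each other. The 39 genes had mean levels over all arrays of 7.69 (log2) or more, and among the 4835 genes at or above that level 25.7%, 23.6% and 23.6% were called lower and 15.1%, 19.5% and 24.2% higher in the 3 comparisons. The median differences of those 4835 genes were -0.08, -0.04 and -0.01.

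Among the 33 measured members with an annotated window of 250 bases before and 50 bases after the transcription start (RefSeq, GRCm38.p6), 6 held a CACGTG, which is 18.2%, against 9.5% of the 15614 measured genes with such a window and 7.15% of all windows. CACGTG reads the same on both strands, so a search of either strand finds each match. The stretches of 30 bases around these matches are shown because they are the letters that Myc and Max are known to bind, and the capitals mark the CACGTG. Rrn3 had 2 matches, and the match of Utp20 lay too near the end of its window for a stretch of this length.
Nop2, chr6:125131811-125131840, plus strand: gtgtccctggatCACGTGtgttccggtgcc
Pes1, chr11:3963965-3963994, plus strand: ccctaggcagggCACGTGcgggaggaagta
Utp18, chr11:93885769-93885798, minus strand: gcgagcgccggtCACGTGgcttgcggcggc
Rrn3, chr16:13780472-13780501, plus strand: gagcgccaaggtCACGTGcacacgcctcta
Rrn3, chr16:13780639-13780668, plus strand: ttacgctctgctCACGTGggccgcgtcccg
Wdr43, chr17:71616220-71616249, plus strand: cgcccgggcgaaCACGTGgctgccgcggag
Counted from the first transcribed base as 1, these matches began at -60 in Nop2, 3 in Pes1, -20 in Utp18, -215 and -48 in Rrn3 and 18 in Wdr43. Pes1, Rrn3 and Wdr43 were called lower in each comparison of 2i with serum, Utp20 in 2 of them, Utp18 in 1 and Nop2 in none. Among the members with a window, CACGTG was in 3 of the 15 called lower in all 3 comparisons. It was in 2 of the 8 called lower in 1 or 2 comparisons and in 1 of the 10 called in none. Whether these shares differ was not tested.

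The 250 bases upstream of Rrn3, with both CACGTG in capitals, and of Nolc1 are shown because Rrn3 is the polymerase I factor that was lower in 2i and Nolc1 had the largest mean decrease of all members.
Rrn3, chr16:13780449-13780698, plus strand: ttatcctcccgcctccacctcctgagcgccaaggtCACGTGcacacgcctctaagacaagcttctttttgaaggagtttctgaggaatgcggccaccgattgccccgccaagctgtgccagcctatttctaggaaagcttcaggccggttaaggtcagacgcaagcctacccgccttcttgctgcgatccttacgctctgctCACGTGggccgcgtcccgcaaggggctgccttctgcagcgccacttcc
Nolc1, chr19:46075597-46075846, plus strand: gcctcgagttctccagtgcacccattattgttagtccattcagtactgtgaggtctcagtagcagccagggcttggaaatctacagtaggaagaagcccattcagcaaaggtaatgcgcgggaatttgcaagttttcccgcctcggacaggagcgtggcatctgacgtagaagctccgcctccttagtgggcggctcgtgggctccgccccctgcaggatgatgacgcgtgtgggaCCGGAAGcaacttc
The Nolc1 window held no CACGTG in these letters, and its capitals mark CCGGAAG, a motif known to be bound by ETS-family factors, beginning at -14. CCGGAAG, searched on both strands, was in a window of 9 of the 33 members (27.3%), against 13.6% of the measured genes with a window. The 2 motifs do not overlap in sequence. A match is a description of these letters and no measurement of binding.

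Myc itself showed the largest change among these genes and their regulators. In EG FCS its log2 levels were 8.56, 8.58, 8.59 and 8.51, against 5.73, 5.51, 5.44 and 5.57 in EG 2i and 5.28, 5.41, 5.73 and 5.09 in EG 2is. In ES FCS its levels were 8.79, 8.14, 8.99, 8.73 and 8.95, against 5.79, 5.41, 5.27, 5.74 and 6.25 in ES 2i. Every serum line was therefore above every 2i line, with a lowest serum level of 8.14 and a highest 2i level of 6.25. The differences were -3.02 (SE 0.18, 8.10-fold lower, limma adjusted p = 2.3e-09) in EG 2i, -3.19 (SE 0.18, 9.14-fold lower, limma adjusted p = 5.7e-10) in EG 2is and -3.03 (SE 0.16, 8.15-fold lower, limma adjusted p = 1.7e-10) in ES 2i. The deposited values carry no detection call. As a gauge of background, Eif2s3y, a gene of the Y chromosome, averaged 4.73 and read at most 4.88 over the 10 female lines. Myc in 2i, at 5.09 to 6.25, was not far above this and lay around the array medians of 5.54 to 5.62. The folds are those of the measured values.

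Mycn was also lower. Its levels were 8.41, 8.03, 8.04 and 7.98 in EG FCS, 7.13, 7.09, 7.25 and 6.65 in EG 2i, 6.86, 6.33, 7.06 and 7.0 in EG 2is, 7.85, 8.62, 8.42, 8.25 and 8.55 in ES FCS and 7.36, 6.63, 7.52, 6.94 and 6.91 in ES 2i. Serum and 2i lines did not overlap within EG or within ES. The differences were -1.24, -1.38 and -1.26 (limma adjusted p = 4.5e-05, 7.0e-06 and 3.0e-06). Max, the partner of both, gave -0.31, -0.17 and -0.18 and Mycl gave 0.07, 0.05 and -0.16, none of them called. Mycl read 4.68 to 5.36 over all arrays, near the level of Eif2s3y in female lines, so its differences say little. Mnt, a Max-binding repressor, was called lower in the 3 comparisons (-0.34, -0.29 and -0.46), as was Mxd1, another (-0.43, -0.47 and -0.36). Over the 11 genes of the Myc family 5, 4 and 5 were called lower and 0, 1 and 0 higher, the latter being Mga, which also pairs with Max (0.30, 0.41 and 0.18).

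**Figure D1:**
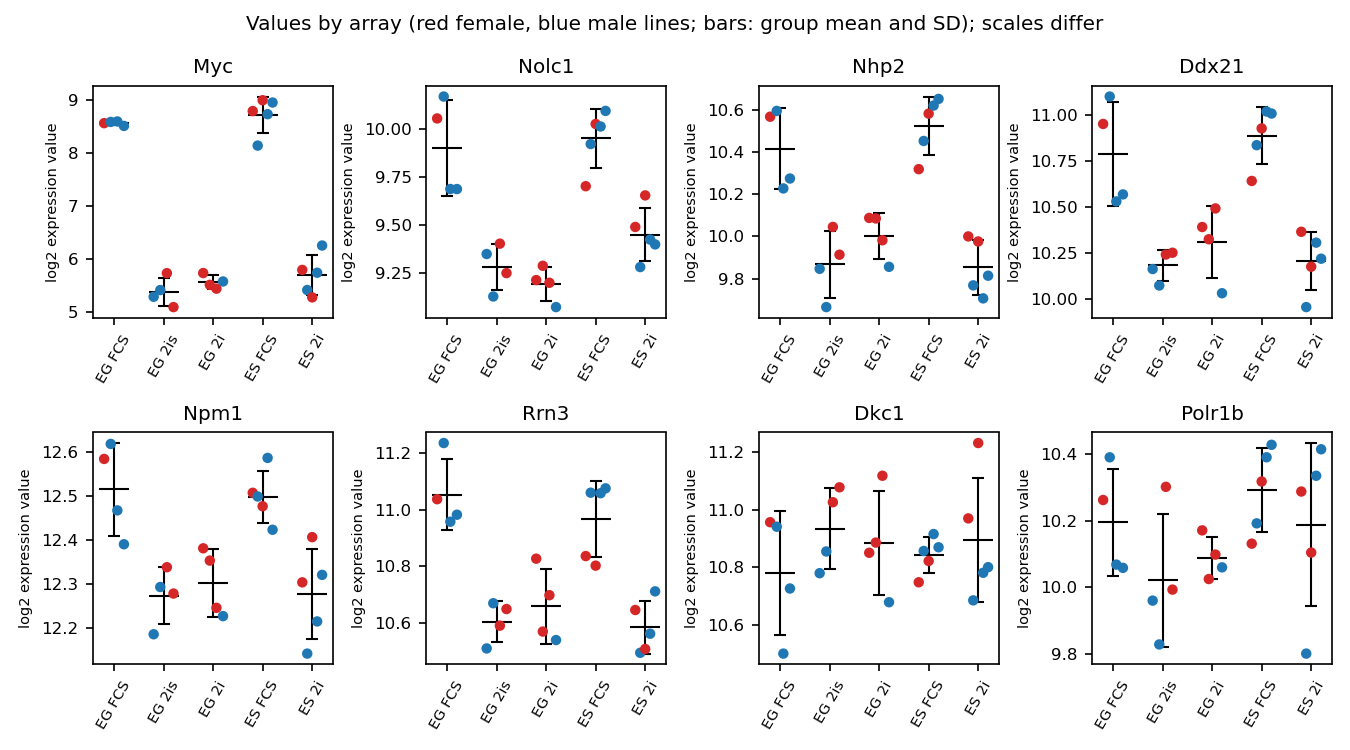
Log2 level on each of the 22 arrays (vertical axes) by group (horizontal axes) for Myc and 7 ribosome biogenesis genes, where each point is 1 line (red female, blue male) and the bars are the group mean and SD, on a scale of its own for each gene. Myc lies between 8.14 and 8.99 in every serum line and between 5.09 and 6.25 in every 2i line, while Dkc1 and Polr1b overlap between serum and 2i.

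The decreases of the member genes were far smaller than that of Myc. The largest was that of Nolc1 in EG 2i, 1.69-fold lower, where Myc was 8.10-fold lower. Averaged over the 39 genes, the array means were 9.96, 10.01, 9.74 and 9.70 in EG FCS, 9.62, 9.63, 9.69 and 9.53 in EG 2i and 9.48, 9.50, 9.68 and 9.63 in EG 2is. In ES FCS they were 9.77, 9.82, 9.89, 9.97 and 9.99, and in ES 2i they were 9.70, 9.51, 9.62, 9.63 and 9.62. Serum lines were above 2i lines within EG and within ES, and EG FCS lines 1 and 2 stood above EG FCS lines 3 and 4. That split was not particular to these genes. Over 12 RNA polymerase II subunits EG FCS lines 1 to 4 averaged 9.14, 9.22, 8.96 and 8.97. Over 10 pluripotency markers the split ran the other way, with 10.52, 10.59, 11.00 and 11.01. Its cause was not tested. The mean ± SD of the 4 arrays was 9.85 ± 0.15 for EG FCS, 9.62 ± 0.07 for EG 2i and 9.57 ± 0.10 for EG 2is, and that of the 5 arrays was 9.89 ± 0.10 for ES FCS and 9.62 ± 0.07 for ES 2i.

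**Figure D2:**
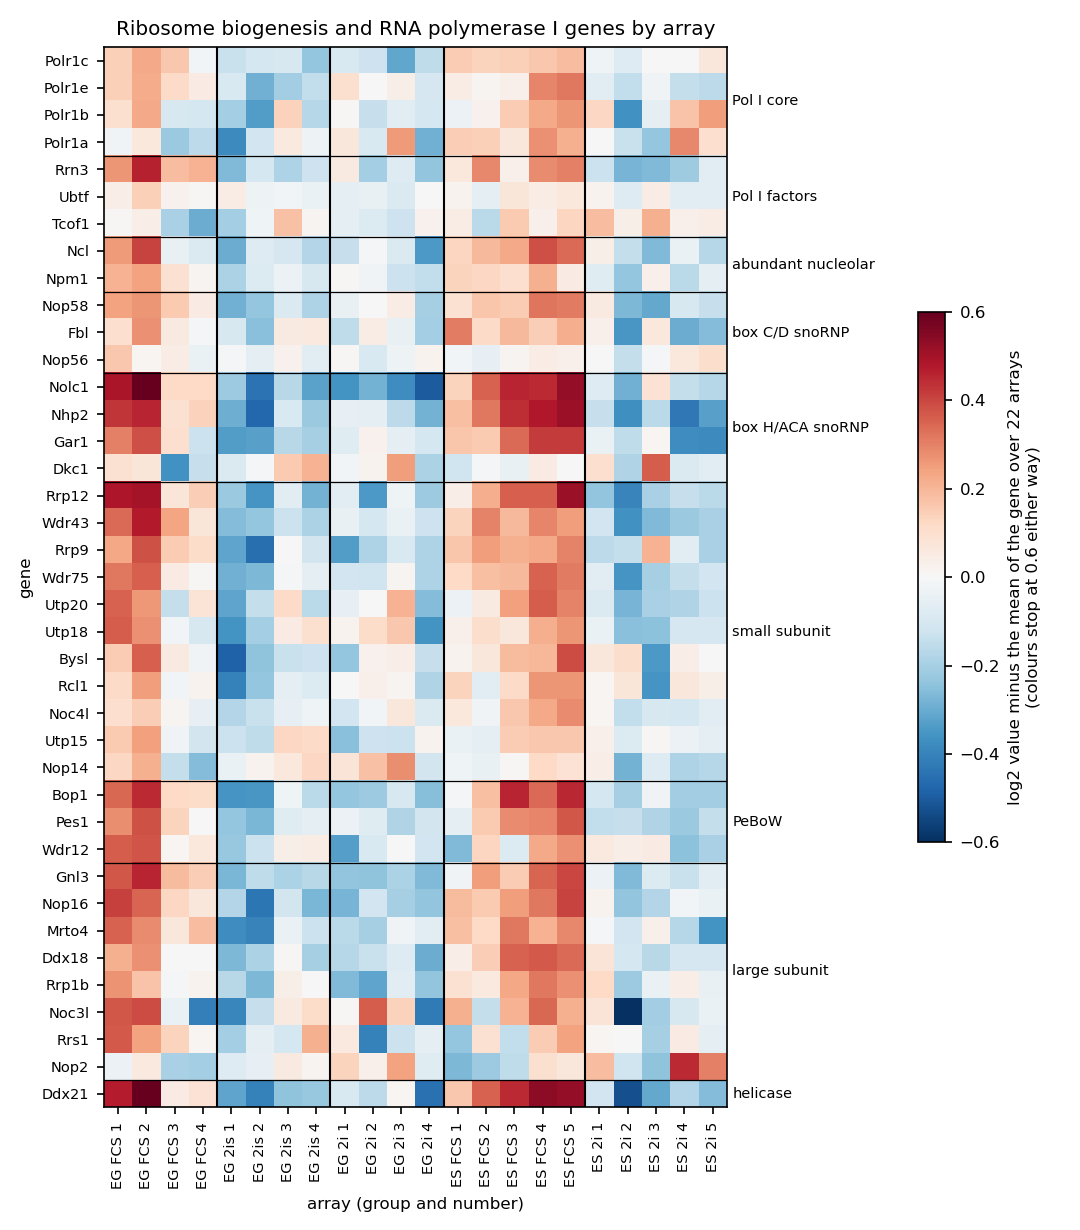
Log2 level of each of the 39 genes (rows, by role) on each of the 22 arrays (columns, by group), as the difference from that gene's mean over all arrays. The serum columns are mostly above the gene means and the 2i columns mostly below, and rows such as Nop2, Dkc1 and Tcof1 do not follow this.

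The RNA polymerase I core subunits did not move as a block. Of 4 subunits 1, 2 and 2 were called lower in EG 2i, EG 2is and ES 2i. Polr1c, a subunit shared with RNA polymerase III, was called in each comparison: its levels were 10.20, 10.29, 10.22 and 10.04 in EG FCS, 9.97, 9.94, 9.75 and 9.91 in EG 2i, 9.92, 9.96, 9.96 and 9.83 in EG 2is, 10.21, 10.19, 10.20, 10.22 and 10.25 in ES FCS and 10.03, 9.98, 10.06, 10.06 and 10.13 in ES 2i. Its groups did not overlap, and the differences were -0.29 (SE 0.06), -0.27 (SE 0.06) and -0.16 (SE 0.05), with limma adjusted p = 0.0021, 0.0027 and 0.027. The call in ES 2i was lost with arrays centred on their medians (adjusted p = 0.0531), with quantile normalization (adjusted p = 0.0771) and without ES FCS line 1, 2 or 5 or ES 2i line 2 or 4 (adjusted p up to 0.0736). Polr1e, the subunit also known as PAF53, gave -0.13, -0.32 and -0.25, of which the EG 2is and ES 2i differences were called (adjusted p = 0.0028 and 0.0060).

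The 2 largest subunits were not called in any comparison. Polr1b, the second-largest subunit, had levels of 10.26, 10.39, 10.07 and 10.06 in EG FCS, 10.17, 10.02, 10.10 and 10.06 in EG 2i, 9.96, 9.83, 10.30 and 9.99 in EG 2is, 10.13, 10.19, 10.32, 10.39 and 10.43 in ES FCS and 10.29, 9.80, 10.10, 10.34 and 10.42 in ES 2i. Its groups overlapped throughout, and the differences were -0.14 (SE 0.11), -0.19 (SE 0.11) and -0.10 (SE 0.10). Polr1a, the largest, catalytic subunit, had levels of 9.17, 9.25, 8.97 and 9.03 in EG FCS, 9.26, 9.10, 9.45 and 8.90 in EG 2i, 8.80, 9.08, 9.25 and 9.16 in EG 2is, 9.34, 9.33, 9.26, 9.46 and 9.40 in ES FCS and 9.19, 9.06, 8.96, 9.48 and 9.29 in ES 2i. These also overlapped, with differences of 0.04, -0.05 and -0.16.

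Of the 3 polymerase I factors, Rrn3 was called lower in each comparison and the other 2 in none. Rrn3 (TIF-IA) links the growth-dependent activity of the polymerase to the promoter. Its levels were 11.04, 11.24, 10.96 and 10.98 in EG FCS, 10.83, 10.57, 10.70 and 10.54 in EG 2i, 10.51, 10.67, 10.59 and 10.65 in EG 2is, 10.84, 11.06, 10.80, 11.06 and 11.08 in ES FCS and 10.64, 10.49, 10.51, 10.56 and 10.71 in ES 2i. Serum and 2i lines did not overlap within EG or ES. The differences were -0.38 (SE 0.09), -0.44 (SE 0.09) and -0.38 (SE 0.08), which is 1.30-fold, 1.36-fold and 1.30-fold lower, with limma adjusted p = 0.0040, 7.4e-04 and 6.0e-04.

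Tcof1, the treacle protein that holds polymerase I factors in the nucleolus, had levels of 9.26, 9.29, 9.05 and 8.95 in EG FCS, 9.19, 9.17, 9.12 and 9.27 in EG 2i, 9.04, 9.22, 9.43 and 9.26 in EG 2is, 9.29, 9.09, 9.41, 9.28 and 9.38 in ES FCS and 9.43, 9.28, 9.46, 9.28 and 9.29 in ES 2i. The groups overlapped and the differences were -0.01, 0.07 and 0.06. Ubtf (UBF), which keeps active ribosomal DNA open, gave -0.11, -0.07 and -0.06, none called. Among 7 further polymerase I genes 2, 1 and 2 were called lower and 1, 1 and 2 higher. Taf1a, a subunit of the promoter factor SL1, was lower in the 3 comparisons (-1.04, -1.02 and -0.63), and Baz2a (TIP5), a part of a complex that silences ribosomal DNA, was called higher in each (0.23, 0.49 and 0.41). Polr1d, shared with polymerase III, gave -0.64, -0.38 and -0.27, of which 1 was called, and Ttf1, the terminator factor, gave 0.11, 0.04 and 0.30, of which 1 was called.

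The 2 abundant nucleolar proteins were lower in 2i. Nucleolin (Ncl), which binds ribosomal DNA and precursor RNA, had levels of 11.87, 12.02, 11.57 and 11.53 in EG FCS, 11.47, 11.60, 11.53 and 11.27 in EG 2i, 11.32, 11.54, 11.51 and 11.44 in EG 2is, 11.74, 11.81, 11.84, 12.0001 and 11.95 in ES FCS and 11.65, 11.47, 11.35, 11.57 and 11.44 in ES 2i. EG FCS lines 3 and 4 lay among the EG 2i lines, whereas the ES groups did not overlap. The differences were -0.30 (SE 0.11), -0.31 (SE 0.10) and -0.37 (SE 0.09), with limma adjusted p = 0.0501, 0.0364 and 0.0039, so the EG 2i difference just missed the threshold and passed it under 6 alternative settings of the fit and when EG 2i line 2, EG FCS line 3 or EG FCS line 4 was left out. The EG 2is call was in turn lost without EG FCS line 1 or 2 or EG 2is line 1, 3 or 4 (adjusted p up to 0.137) and with only the compared arrays in the fit (adjusted p = 0.0856).

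Nucleophosmin (Npm1), a nucleolar chaperone of ribosome assembly, had levels of 12.58, 12.62, 12.47 and 12.39 in EG FCS, 12.38, 12.35, 12.25 and 12.23 in EG 2i, 12.19, 12.29, 12.34 and 12.28 in EG 2is, 12.51, 12.50, 12.48, 12.59 and 12.42 in ES FCS and 12.30, 12.14, 12.41, 12.21 and 12.32 in ES 2i. The groups did not overlap, by a narrow margin. The differences were -0.25 (SE 0.07), -0.26 (SE 0.06) and -0.22 (SE 0.06), with limma adjusted p = 0.0076, 0.0041 and 0.0042. With only the EG 2i and EG FCS arrays in the fit the first of these had an adjusted p of 0.0740.

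The core proteins of the box C/D snoRNP, which carries out 2′-O-methylation of rRNA, behaved unequally: 2, 1 and 2 of 3 were called lower. Nop58 had levels of 11.05, 11.07, 10.97 and 10.86 in EG FCS, 10.76, 10.81, 10.85 and 10.61 in EG 2i, 10.52, 10.58, 10.72 and 10.62 in EG 2is, 10.90, 10.98, 10.96, 11.13 and 11.12 in ES FCS and 10.86, 10.54, 10.50, 10.71 and 10.67 in ES 2i. Its groups did not overlap, though EG FCS line 4 and ES 2i line 1 came close to the opposite group. The differences were -0.25 (SE 0.09), -0.39 (SE 0.08) and -0.36 (SE 0.07), with limma adjusted p = 0.039, 0.0016 and 7.3e-04, and the EG 2i call was lost with quantile normalization (adjusted p = 0.121) and when any of EG 2i lines 1, 2 and 4 and EG FCS lines 1, 2 and 3 was left out (adjusted p up to 0.188).

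Nop56, the partner of Nop58 in the same particle, had levels of 11.57, 11.42, 11.45 and 11.37 in EG FCS, 11.41, 11.31, 11.37 and 11.43 in EG 2i, 11.40, 11.35, 11.43 and 11.34 in EG 2is, 11.39, 11.36, 11.42, 11.45 and 11.44 in ES FCS and 11.41, 11.26, 11.40, 11.47 and 11.51 in ES 2i. The groups overlapped, with differences of -0.08, -0.08 and 0.00. Fibrillarin (Fbl), the methyltransferase of the particle, had levels of 9.75, 9.92, 9.70 and 9.64 in EG FCS, 9.49, 9.69, 9.60 and 9.44 in EG 2i, 9.55, 9.40, 9.70 and 9.71 in EG 2is, 9.95, 9.76, 9.84, 9.80 and 9.87 in ES FCS and 9.68, 9.30, 9.71, 9.35 and 9.39 in ES 2i. Only the ES groups were apart. The Fbl differences were -0.28 (SE 0.08), -0.21 (SE 0.08) and -0.36 (SE 0.07), with limma adjusted p = 0.0148, 0.0581 and 4.5e-04. A second probe set of Fbl gave smaller values of -0.19, -0.19 and -0.14 (adjusted p = 0.0536, 0.0355 and 0.0774), so that the 2 probe sets disagreed on all 3 calls. Fbl lies on chromosome 7, but the number of the probe set used lies between those of members on chromosome 17. Whether it reads the Fbl locus was not tested. The EG 2i call of the probe set used was also lost with no sex term (adjusted p = 0.171), with only the compared arrays in the fit (0.169) and with quantile normalization (0.0649).

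The box H/ACA particle converts uridine to pseudouridine, and of its genes and its chaperone 2, 3 and 3 of 4 were called lower. Nolc1 (Nopp140), a nucleolar phosphoprotein that binds both kinds of snoRNP, had levels of 10.06, 10.17, 9.69 and 9.69 in EG FCS, 9.21, 9.29, 9.20 and 9.07 in EG 2i, 9.35, 9.13, 9.40 and 9.25 in EG 2is, 9.70, 9.92, 10.03, 10.02 and 10.10 in ES FCS and 9.49, 9.28, 9.66, 9.42 and 9.40 in ES 2i. The groups did not overlap, and ES 2i line 3 came close to ES FCS line 1. The differences were -0.76 (SE 0.10, 1.69-fold lower), -0.65 (SE 0.10, 1.56-fold lower) and -0.50 (SE 0.09, 1.42-fold lower), with limma adjusted p = 2.5e-05, 6.7e-05 and 1.7e-04.

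Nhp2, a core protein of the particle, had levels of 10.57, 10.59, 10.23 and 10.27 in EG FCS, 10.09, 10.08, 9.98 and 9.86 in EG 2i, 9.85, 9.67, 10.04 and 9.91 in EG 2is, 10.32, 10.45, 10.58, 10.62 and 10.65 in ES FCS and 10.00, 9.77, 9.98, 9.71 and 9.81 in ES 2i. Serum and 2i lines stayed apart. The differences were -0.48 (SE 0.09), -0.58 (SE 0.09) and -0.67 (SE 0.08, 1.59-fold lower), with limma adjusted p = 8.9e-04, 8.5e-05 and 3.0e-06. Gar1, another core protein, gave -0.28, -0.45 and -0.49, of which the EG 2is and ES 2i differences were called (adjusted p = 0.0021 and 2.5e-04) and the EG 2i difference was not (adjusted p = 0.0578).

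Dyskerin (Dkc1), the pseudouridine synthase of this particle and a part of telomerase, was called in no comparison of the media. Its levels were 10.96, 10.94, 10.50 and 10.73 in EG FCS, 10.85, 10.89, 11.12 and 10.68 in EG 2i, 10.78, 10.86, 11.03 and 11.08 in EG 2is, 10.75, 10.86, 10.82, 10.92 and 10.87 in ES FCS and 10.97, 10.69, 11.23, 10.78 and 10.80 in ES 2i. The groups overlapped, and the differences were 0.00 (SE 0.10), 0.10 (SE 0.10) and 0.05 (SE 0.09), with limma adjusted p = 0.986, 0.502 and 0.728. Among 12 other snoRNP genes 6, 8 and 6 were called lower and none higher. Naf1, an assembly factor of the H/ACA particle, gave -0.76, -0.84 and -0.73, and Ruvbl1, an ATPase of C/D particle assembly, gave -0.64, -0.72 and -0.52, all called.

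Of the 11 measured genes of the small subunit, 4 were called lower in EG 2i, 7 in EG 2is and 7 in ES 2i. Rrp12, a factor needed to export and mature pre-40S particles, had levels of 8.67, 8.68, 8.25 and 8.33 in EG FCS, 8.12, 7.84, 8.16 and 7.96 in EG 2i, 7.96, 7.83, 8.12 and 7.90 in EG 2is, 8.22, 8.40, 8.54, 8.54 and 8.70 in ES FCS and 7.95, 7.79, 7.99, 8.04 and 8.02 in ES 2i. The groups did not overlap, and the differences were -0.49 (SE 0.10), -0.55 (SE 0.10) and -0.52 (SE 0.09), with limma adjusted p = 0.0015, 3.7e-04 and 1.1e-04.

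Wdr43, a subunit of the UTP-A complex that starts the processome, had levels of 11.23, 11.37, 11.13 and 10.96 in EG FCS, 10.85, 10.79, 10.85 and 10.77 in EG 2i, 10.63, 10.66, 10.76 and 10.70 in EG 2is, 11.02, 11.19, 11.09, 11.18 and 11.14 in ES FCS and 10.78, 10.53, 10.63, 10.67 and 10.70 in ES 2i. All serum lines were above all 2i lines within EG and within ES. The differences were -0.37 (SE 0.08), -0.49 (SE 0.08) and -0.47 (SE 0.07), with limma adjusted p = 0.0015, 6.4e-05 and 2.1e-05. Wdr75, of the same complex, was also called in each comparison, with -0.33, -0.36 and -0.41 (adjusted p = 0.0544 in EG 2i without EG FCS line 1), as was Rrp9, a protein of the U3 snoRNP, with -0.47, -0.46 and -0.30. Utp15, also of UTP-A, gave -0.22, -0.10 and -0.10 and was not called.

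The remaining small subunit genes were called in some comparisons only. Utp20, a large scaffold of the processome, gave -0.23, -0.30 and -0.36, of which the last 2 were called. Its EG 2is call (adjusted p = 0.0426) was lost without EG FCS line 1, 2 or 4 or EG 2is line 1, 2 or 4 (adjusted p up to 0.170) and under 5 other settings, among them no batch term and no sex term. Utp18, of the UTP-B complex, gave -0.23, -0.28 and -0.28, of which the last was called (adjusted p = 0.0319), and that call was lost without ES FCS line 2, 4 or 5 or ES 2i line 2 or 3 (adjusted p up to 0.115). Noc4l, a nucleolar 40S factor, gave -0.12, -0.16 and -0.22, called in ES 2i alone. Bysl, a pre-40S factor, gave -0.21, -0.38 and -0.20 and Rcl1, the endonuclease-like processome protein, gave -0.14, -0.29 and -0.18, both called in EG 2is alone. The Rcl1 call was lost without EG FCS line 1, 2 or 4 or EG 2is line 1 or 2 (adjusted p up to 0.186) and the Bysl call without EG FCS line 1 or 2 or EG 2is line 1 (adjusted p up to 0.0969). These single calls do not show that the cultures differ from each other, since the differences between EG 2i and EG 2is and between EG and ES responses of these genes were not called.

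Nop14, a partner of Noc4l in the processome, showed the smallest mean difference of the group. Its levels were 9.54, 9.63, 9.28 and 9.16 in EG FCS, 9.50, 9.60, 9.70 and 9.31 in EG 2i, 9.38, 9.44, 9.48 and 9.54 in EG 2is, 9.39, 9.38, 9.43, 9.54 and 9.51 in ES FCS and 9.46, 9.14, 9.34, 9.24 and 9.25 in ES 2i. The groups overlapped, with differences of 0.06, 0.03 and -0.17. Among 45 other small subunit genes 16, 22 and 15 were called lower and none higher. Heatr1 (UTP10), of the UTP-A complex, gave -0.55, -0.65 and -0.64 and Nol10 gave -0.72, -0.69 and -0.30, all called.

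The PeBoW complex is a trimer of Pes1, Bop1 and Wdr12 that acts in large subunit maturation, and Pes1 and Bop1 were called lower in each comparison. Bop1 had levels of 9.31, 9.41, 9.09 and 9.07 in EG FCS, 8.73, 8.75, 8.87 and 8.71 in EG 2i, 8.61, 8.61, 8.94 and 8.80 in EG 2is, 8.95, 9.15, 9.42, 9.31 and 9.42 in ES FCS and 8.86, 8.77, 8.94, 8.76 and 8.75 in ES 2i. The groups were apart, although ES FCS line 1 and ES 2i line 3 almost met. The differences were -0.51 (SE 0.09), -0.51 (SE 0.09) and -0.43 (SE 0.08), with limma adjusted p = 4.8e-04, 3.0e-04 and 2.8e-04.

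Pes1 had levels of 10.10, 10.20, 9.95 and 9.82 in EG FCS, 9.78, 9.75, 9.64 and 9.71 in EG 2i, 9.59, 9.55, 9.74 and 9.76 in EG 2is, 9.76, 9.98, 10.10, 10.11 and 10.19 in ES FCS and 9.67, 9.68, 9.64, 9.59 and 9.68 in ES 2i. The groups did not overlap, and the differences were -0.31 (SE 0.09), -0.36 (SE 0.09) and -0.38 (SE 0.08), with limma adjusted p = 0.0145, 0.0035 and 6.7e-04, of which the first was 0.0713 without EG FCS line 1. Wdr12 had levels of 9.48, 9.50, 9.13 and 9.19 in EG FCS, 8.79, 9.03, 9.12 and 9.01 in EG 2i, 8.90, 8.99, 9.16 and 9.17 in EG 2is, 8.86, 9.25, 9.04, 9.35 and 9.40 in ES FCS and 9.18, 9.16, 9.17, 8.88 and 8.93 in ES 2i. EG FCS and EG 2i were just apart and the other pairs of groups overlapped. The Wdr12 differences of -0.35 (SE 0.13), -0.28 (SE 0.12) and -0.12 (SE 0.11) were not called (limma adjusted p = 0.0553, 0.110 and 0.485), while a second probe set of Wdr12 gave -0.51, -0.47 and -0.34, all called (adjusted p = 0.0113, 0.0146 and 0.0389). The number of the probe set used lies outside those of the other members on chromosome 1, and that of the second lies among them. Whether each reads the Wdr12 locus was not tested, so the missing call of Wdr12 is uncertain.

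Of the 8 measured genes of large subunit maturation, 5 were called lower in each comparison. Gnl3 (nucleostemin), a nucleolar GTPase known for its high level in stem cells, had levels of 10.55, 10.63, 10.37 and 10.33 in EG FCS, 9.94, 9.94, 9.99 and 9.91 in EG 2i, 9.91, 10.03, 9.99 and 10.01 in EG 2is, 10.16, 10.43, 10.33, 10.53 and 10.58 in ES FCS and 10.14, 9.92, 10.10, 10.05 and 10.11 in ES 2i. The EG groups were well apart and the ES groups barely so, with ES FCS line 1 just above ES 2i line 1. The differences were -0.52 (SE 0.08), -0.49 (SE 0.08) and -0.34 (SE 0.07), with limma adjusted p = 1.4e-04, 1.7e-04 and 9.4e-04.

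Nop16, a nucleolar protein of the pre-60S particle, had levels of 9.82, 9.76, 9.54 and 9.48 in EG FCS, 9.14, 9.30, 9.22 and 9.18 in EG 2i, 9.24, 8.98, 9.31 and 9.14 in EG 2is, 9.61, 9.57, 9.67, 9.73 and 9.82 in ES FCS and 9.44, 9.18, 9.24, 9.40 and 9.37 in ES 2i. Serum and 2i lines were apart, and the differences were -0.47 (SE 0.09), -0.50 (SE 0.09) and -0.35 (SE 0.08), with limma adjusted p = 5.7e-04, 2.0e-04 and 0.0011. Mrto4, a placeholder for the ribosomal stalk, gave -0.41, -0.50 and -0.35, and Ddx18, an RNA helicase, gave -0.33, -0.30 and -0.33, and a second probe set of each of these genes was also called in each comparison. The number of the Ddx18 probe set used lies outside those of the other members on chromosome 1, and whether it reads the Ddx18 locus was not tested. The Ddx18 call in EG 2i was lost when EG 2i line 4 or EG FCS line 1 was left out (adjusted p up to 0.0559). Rrp1b, a nucleolar processing protein, gave -0.39, -0.24 and -0.22, all called. Its EG 2is call was lost without EG FCS line 1 or 2 or EG 2is line 1 or 2 (adjusted p up to 0.119), with no sex term and with quantile normalization, and its ES 2i call without ES FCS line 4 or 5 or ES 2i line 2 or 3 (adjusted p up to 0.0655).

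Nop2, a methyltransferase of the large subunit rRNA, was the member with the highest mean of the 3 estimates, though Dkc1 was slightly higher in EG 2is. Its levels were 9.77, 9.86, 9.61 and 9.60 in EG FCS, 9.94, 9.84, 10.05 and 9.73 in EG 2i, 9.73, 9.75, 9.86 and 9.82 in EG 2is, 9.53, 9.59, 9.65, 9.90 and 9.87 in ES FCS and 9.99, 9.69, 9.56, 10.25 and 10.11 in ES 2i. The groups overlapped, and the differences were 0.19 (SE 0.12), 0.09 (SE 0.12) and 0.21 (SE 0.11), none called (limma adjusted p = 0.302, 0.676 and 0.145), though with array weights the ES 2i difference was 0.26 (adjusted p = 0.0116) and it passed the threshold without ES 2i line 3 (adjusted p = 0.0030). Noc3l, a pre-60S factor, gave -0.21, -0.25 and -0.34 and Rrs1, which brings 5S particles into the pre-60S particle, gave -0.30, -0.21 and -0.06, none called. Among 50 other large subunit genes 23, 28 and 27 were called lower and 0, 0 and 1 higher. Ebna1bp2 gave -0.70, -0.77 and -0.73 and Wdr55 gave -0.79, -0.72 and -0.65, all called, and Nsa2 gave -0.04, 0.09 and 0.17, of which the last was called higher.

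Ddx21, a nucleolar RNA helicase that acts both at the ribosomal DNA and in rRNA processing, was among the most lowered members. Its levels were 10.95, 11.10, 10.53 and 10.57 in EG FCS, 10.39, 10.32, 10.49 and 10.03 in EG 2i, 10.16, 10.07, 10.24 and 10.25 in EG 2is, 10.64, 10.84, 10.93, 11.02 and 11.01 in ES FCS and 10.37, 9.96, 10.18, 10.31 and 10.22 in ES 2i. The groups were apart, with EG FCS lines 3 and 4 closest to EG 2i. The differences were -0.54 (SE 0.12, 1.45-fold lower), -0.64 (SE 0.12, 1.55-fold lower) and -0.68 (SE 0.10, 1.60-fold lower), with limma adjusted p = 0.0029, 4.2e-04 and 3.9e-05.

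**Figure D3:**
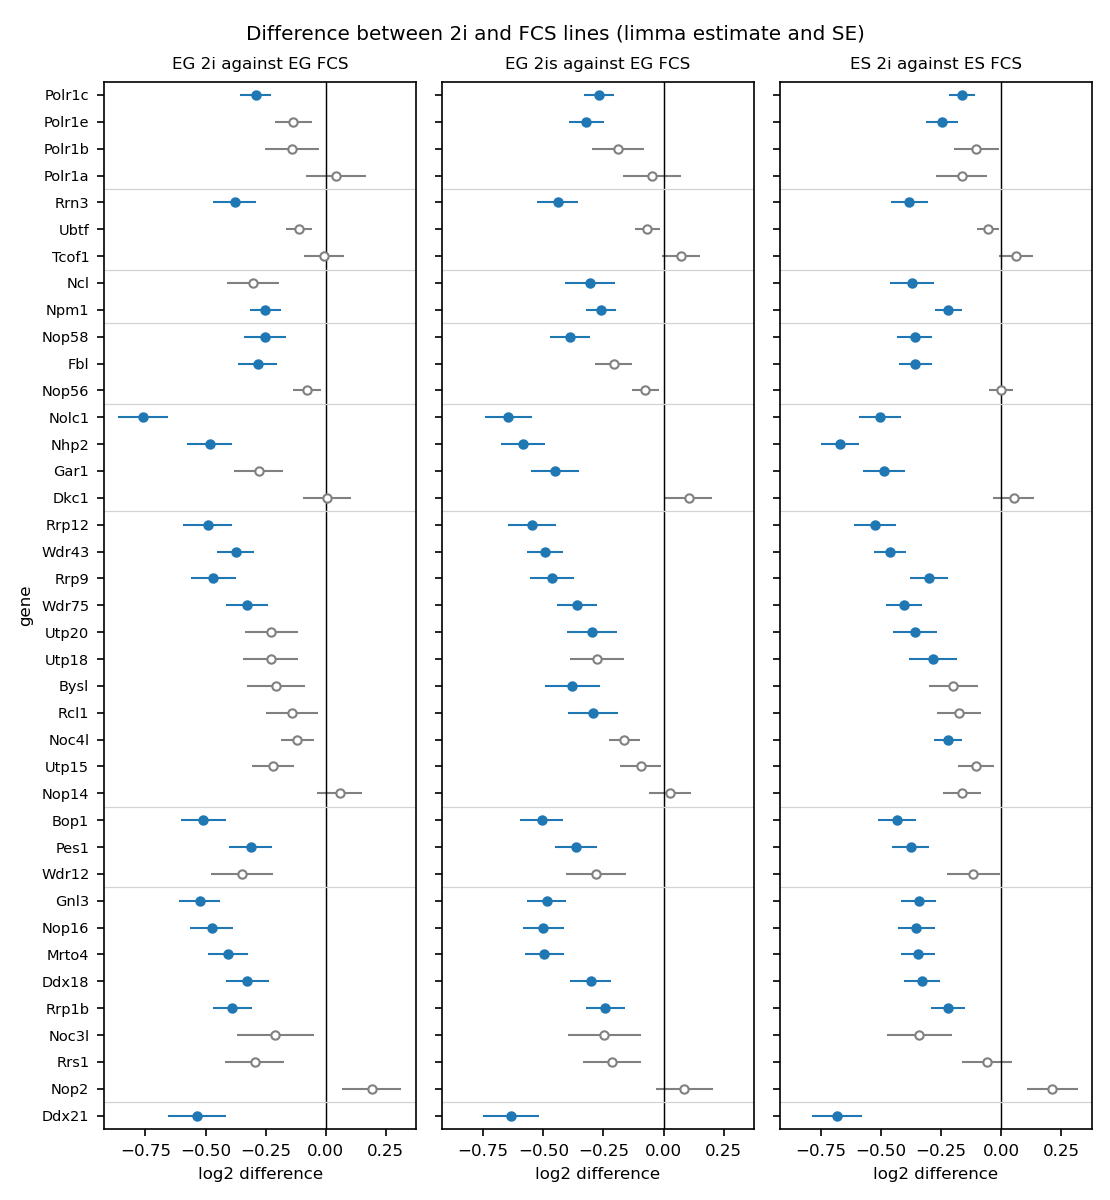
Log2 difference of 2i from serum (horizontal axis) for each of the 39 genes (vertical axis) in EG 2i, EG 2is and ES 2i, with bars of 1 SE and filled points for genes called at an adjusted p under 0.05. The called points all lie below 0, from -0.16 for Polr1c to -0.76 for Nolc1, and Nop2 lies above 0 in the 3 comparisons without being called.

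In terms of arrays rather than tests, 19, 20 and 21 of the 39 genes had every 2i line below every serum line in EG 2i, EG 2is and ES 2i, where 12.8%, 12.3% and 10.6% of all genes did, and none had every 2i line above. Several differences that were not called passed the threshold when 1 array was left out. In EG 2i these were Gar1 (without EG FCS line 4), Utp15 (EG FCS line 4 or EG 2i line 4), Utp20 (EG FCS line 3), Wdr12 (EG FCS line 3 or 4) and Rrs1 (EG 2i line 1), with adjusted p from 0.0116 to 0.0483. In EG 2is they were Fbl (EG FCS line 1), Utp18 and Noc4l (EG FCS line 4), with adjusted p from 0.0275 to 0.0493, and in ES 2i Noc3l (ES FCS line 3 or ES 2i line 1), with adjusted p of 0.0336 and 0.0365. The ES comparison could also be made within each array batch, since each batch held both cultures. Within batch 2, with 3 lines per group, 27 members were called lower with a median of -0.35. Within batch 1, with 2 lines per group, 2 were called lower with a median of -0.21. The shares of all genes called in these batch fits are not given here, so these counts cannot be read against them.

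Genes of the same machinery outside the list were also read. Over 114 other ribosome biogenesis and polymerase I genes, 47, 59 and 50 were called lower, which is 41.2%, 51.8% and 43.9%, and 1, 1 and 3 higher, with medians of -0.21, -0.27 and -0.20. The members' shares were 48.7%, 61.5% and 64.1%, and the difference between the lists was not tested. For the proteins of the finished ribosome, of 55 measured cytosolic ribosomal protein genes 5, 3 and 2 were called lower and 0, 3 and 2 higher, with medians of -0.04, 0.04 and 0.00. Rpl30 gave -0.61, -0.42 and -0.47 and Rpl34 gave -0.44, -0.32 and -0.36, all called lower, whereas Rps20 gave 0.07, 0.20 and 0.20, of which 2 were called higher, and Rps29 gave 0.10, 0.19 and 0.18, of which 1 was. A further 25 of 80 listed ribosomal protein genes had no probe set of their own, and probe sets of this family can detect processed pseudogenes, so these levels are uncertain.

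The other polymerases and other Myc targets are given beside the shares of genes with a mean level of 7.69 or more, of which 25.7%, 23.6% and 23.6% were called lower and 15.1%, 19.5% and 24.2% higher. Of 12 RNA polymerase II subunits 6, 4 and 5 were called lower (50%, 33.3% and 41.7%) and 0, 0 and 1 higher, with Polr2j (-0.59, -0.53 and -0.36) and Polr2d (-0.50, -0.54 and -0.41) the furthest down and Polr2g at 0.31 the one called higher, in ES 2i. Of 19 RNA polymerase III genes 8, 9 and 6 were called lower (42.1%, 47.4% and 31.6%) and 1, 1 and 2 higher. There Gtf3c6 gave -0.75, -0.85 and -0.68 and Gtf3c5 gave -0.53, -0.58 and -0.27, while Gtf3c1 gave 0.24, 0.29 and 0.48, called higher in each, and Brf2 gave 0.22, 0.16 and 0.37, of which 1 was called. Of 17 other Myc targets 8, 8 and 7 were called lower (47.1%, 47.1% and 41.2%) and 1, 1 and 2 higher. Ccnd2, a G1 cyclin, gave -1.23, -1.83 and -1.74 and Odc1, the rate-limiting enzyme of polyamine synthesis, gave -1.04, -0.96 and -0.80, whereas Shmt2, a mitochondrial one-carbon enzyme, was called higher with 0.56, 0.78 and 0.61.

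**Figure D4:**
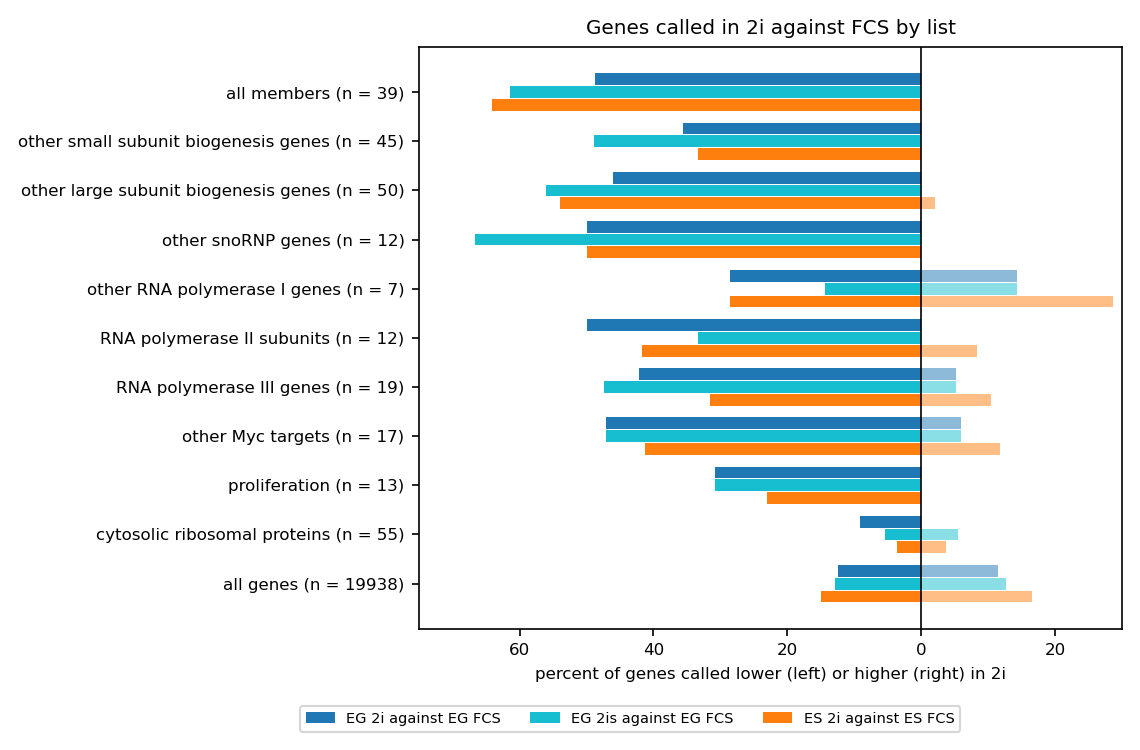
Percent of the genes of each list called lower (bars to the left) or higher (bars to the right) in EG 2i, EG 2is and ES 2i against serum, on an axis with 0 at the vertical line. The listed members reach 48.7%, 61.5% and 64.1% lower and 0 higher, whereas the 55 ribosomal protein genes reach at most 9.09% lower.

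Nucleolar stress is known to stabilise p53, and its targets were read for that reason. Of 12 targets 0, 2 and 3 were called lower and 4, 4 and 2 higher, where 12.5%, 12.9% and 14.9% of all genes were lower and 11.4%, 12.7% and 16.6% higher. Cdkn1a and Bax, which were also listed, had no probe set of their own and were not read. Sesn1, a stress-induced inhibitor of mTORC1 signalling, gave 0.53, 0.64 and 0.43, all called higher, and Phlda3, a repressor of Akt, gave 0.55, 0.44 and 0.21, of which 2 were called. Bbc3 (PUMA), a cell death gene, gave -0.29, -0.38 and -0.55 and Aen, a nuclease, gave -0.12, -0.29 and -0.27, of which 2 each were called lower.

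Feeder fibroblasts were present in the FCS cultures only, and many genes of a fibroblast marker list were lower in 2i. Of 21 fibroblast markers 10, 12 and 14 were called lower in 2i and 0, 1 and 3 higher. The mean level of the list ranged from 6.52 to 7.21 over the FCS arrays and from 5.93 to 6.12 over the 2i arrays. Acta2 differed by -4.50, -4.52 and -4.05 and Thbs1 by -4.24, -4.37 and -4.28, all called lower, whereas Fn1 gave 0.26, 0.60 and 0.35, called higher in EG 2is and ES 2i, and Timp1 gave 0.09, 0.32 and 0.53, called higher in ES 2i. Fn1, Vim and Sparc were above a level of 10 in every group mean, including those without feeders. Other markers were low even in FCS, where array medians over probe sets were 5.54 or more. In EG FCS and ES FCS Lum averaged 4.74 and 4.57, Dcn 4.88 and 5.31, Postn 5.26 and 5.11 and Col3a1 5.55 and 5.43. The list mean is therefore no measure of the amount of fibroblast RNA. Within EG FCS the list means were 6.79, 6.52, 6.90 and 7.21 for lines 1 to 4, beside member means of 9.96, 10.01, 9.74 and 9.70. Within ES FCS the list means were 7.14, 6.52, 6.95, 6.70 and 6.68 for lines 1 to 5, beside member means of 9.77, 9.82, 9.89, 9.97 and 9.99. Since the list mean does not measure feeder RNA, these values cannot show how member levels relate to it. Fewer cells of a type and less RNA per cell cannot be told apart in these bulk samples, and the part of feeder RNA in the member differences was not tested.

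Of 13 measured proliferation genes 4, 4 and 3 were called lower (30.8%, 30.8% and 23.1%) and none higher, beside 25.7%, 23.6% and 23.6% lower among all genes with a mean level of 7.69 or more, and their mean level ranged from 10.35 to 10.56 in FCS and from 10.17 to 10.29 in 2i. Ccne1, the G1/S cyclin E1, gave -1.27, -1.44 and -1.39 and Mki67, a marker of cycling cells, gave -0.40, -0.40 and -0.36, all called. The part of growth rate in the member differences was not tested. Pluripotency markers were present in every group, with Pou5f1 (Oct4) group means between 11.53 and 11.66. Nanog gave 0.73, 0.66 and 0.60 and Tfcp2l1 gave 1.44, 1.69 and 1.35, called higher in each comparison, while Tdgf1 was called lower in each (-0.63, -0.53 and -0.41) and Sall4 gave -0.25, -0.23 and -0.42, of which 1 was called. Of 10 such markers 1, 1 and 2 were called lower and 3, 3 and 2 higher. Of 8 germ cell markers 3, 3 and 4 were called lower, with Ddx4 at -1.14, -1.45 and -1.61 and Prdm1 at -0.99, -0.77 and -0.98, and 3, 3 and 3 higher, with Dazl at 2.69, 2.30 and 1.72 and Prdm14 at 2.17, 2.23 and 1.47. Of 8 primitive endoderm markers 1, 3 and 0 were called lower, with Dab2 at -1.56, -1.80 and -0.03 and Pdgfra, which is also a fibroblast marker, at -0.33, -0.50 and -0.20, and 0, 0 and 1 higher, which was Lama1 in ES 2i (0.89, named after its value was seen). Of 7 neural markers 2, 2 and 3 were called lower and none higher, with Pax6 at -0.54, -0.67 and -1.31 and Map2 at -0.56, -0.58 and -0.61.

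Starting EG lines in serum for 2 days made no difference that could be called in these genes. Between EG 2i and EG 2is 0 of the 39 were called by limma, where 0% of all genes were called. At an unadjusted p under 0.05 there was 1 member, Polr1e, higher in EG 2i by 0.19 (SE 0.07, adjusted p = 0.373). The member differences ranged from -0.15 to 0.19 with SEs of 0.05 to 0.15.

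EG and ES lines did not differ by a called amount in the same medium either. In serum 0 of the 39 were called by limma, and 0 at an unadjusted p under 0.05, where 0.01% of all genes were called. In 2i 0 of the 39 were called between EG 2i and ES 2i, where 3.72% of all genes were, and 0 between EG 2is and ES 2i, where 0.0451% were, with 1 member at an unadjusted p under 0.05 in each. That member was Nop14 both times, higher in EG by 0.23 (SE 0.10, adjusted p = 0.194) and by 0.20 (SE 0.10, adjusted p = 0.532), and the 2 comparisons share the ES 2i arrays. EG arrays were all in batch 1, so these comparisons rest on the ES lines to set the batch term. With the arrays of batch 1 alone, again 0 members were called in each.

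The response to 2i itself was set against cell origin with an interaction term, the EG 2i minus EG FCS difference minus that of ES. For 0 of the 39 members was it called, or under an unadjusted p of 0.05, where 1.44% of all genes were called. The largest was that of Nolc1, -0.26 (SE 0.13, adjusted p = 0.365), whose decrease was -0.76 in EG and -0.50 in ES. The interval of such differences is wide beside the effects, with SEs of 0.07 to 0.21.

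Sex was unequal between the EG groups and entered each fit as a term. No member was called between the 10 female and the 12 male lines by limma, where 3.62% of all genes were called. At an unadjusted p under 0.05 there were 9, all higher in female lines, which is 23.1% of the members beside 20.7% of all genes. The lowest adjusted p was that of Fbl, 0.0531, for a difference of 0.18 (SE 0.05). Dkc1 lies on the X chromosome and averaged 10.97 ± 0.15 (SD) over the 10 female lines and 10.78 ± 0.12 (SD) over the 12 male ones, a difference of 0.20 (SE 0.06, limma adjusted p = 0.0795).

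When sex was fitted in each medium, a fit added after the data had been seen, Dkc1 differed by 0.30 (SE 0.07, adjusted p = 0.0227) and Fbl by 0.26 (SE 0.06, adjusted p = 0.0144) among 2i lines, where 5.17% of all genes were called. Among serum lines 0 members were called, where 0.0251% of all genes were, with Dkc1 at 0.04 and Fbl at 0.05. By line, Dkc1 in ES 2i was 10.97 and 11.23 in the 2 female lines and 10.69 to 10.80 in the 3 male lines, whereas in ES FCS it was 10.75 and 10.82 in female and 10.86 to 10.92 in male lines. The female lines were thus above the male lines in ES 2i and below them in ES FCS. The change of the sex difference between media was 0.25 for Dkc1 (unadjusted p = 0.0391, limma adjusted p = 0.772) and was called for no gene.

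Within groups, members did not follow the Myc level by a called amount. With the Myc level of each array as a term beside group, sex and batch, 0 of the 39 slopes were called by limma, where 0.0502% of all genes were. At an unadjusted p under 0.05 there were 3: Polr1b with a slope of 0.30 (SE 0.13) and Rcl1 with 0.27 (SE 0.13) log2 units per log2 unit of Myc, and Dkc1 with -0.25 (SE 0.12). The median member slope was 0.06. Within a group Myc varied over less than 1 log2 unit, whereas its differences between media ran from -3.02 to -3.19, so that the slopes bear on a narrow range of Myc. In EG FCS it ran only from 8.51 to 8.59. In the 2i lines it read 5.09 to 6.25, not far above the level of Eif2s3y in female lines, where readings carry little of a real difference. The missing calls therefore cannot show whether members follow Myc.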

How the data were processed

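Expression was measured on Affymetrix gene arrays in 22 samples. The authors deposited log2 values, and RMA, limma and Affymetrix Expression Console are listed, without versions, per the submitters' processing notes. RMA corrects background, equalises array distributions and summarises probes, so differences can be compressed and a change of total RNA per cell is not seen. No counts or depth exist for arrays, and precision is limited by how many arrays there are. Of 28853 probe sets 21789 carried 1 gene symbol in the platform annotation, 1621 several and 5443 none, and 21698 were matched by Entrez ID. For each of 19938 genes the probe set with the highest mean was used, and whether it lay at the gene's own locus was not tested. One linear model (limma 3.58.1 in R 4.3.3, default prior) with group, sex and batch was fitted on all arrays, two-sided, with Benjamini-Hochberg adjustment over all genes. The test was checked on simulated data. Motifs were searched with Python 3.11.15 in RefSeq windows of GRCm38.p6. Genes named with values were all members, those called lower in the 3 comparisons with the largest mean difference and the one with the smallest in each role, and 2 called genes per direction in each further list. The members and lists were chosen with earlier results of these data known. The alternatives changed the covariates, arrays, normalization, probe sets, low-level filter and variance prior, added array weights or a replicate block, or left out an array.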

Additional observations from a re-analysis of the deposited data

Results flagged for a closer look

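Of 200 tests for a sample far from the rest of its group, over the 39 members and Myc in 5 groups, 5 stood out, and chance flags about 1 in 20 groups. Rcl1 was low in EG 2i line 4 at 8.452, where the next line read 8.632, and in ES 2i line 3 at 8.281, where the next line read 8.645. Bysl was low in the same ES 2i line 3 at 8.147, against 8.493 in the next. Noc3l was low in ES FCS line 2 at 9.032, against 9.384 in the next. Ddx18 was high in ES 2i line 1 at 10.52, against 10.35 in the next. No member's response to 2i differed between EG and ES lines in the test of that difference.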

How the results depend on the processing

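No called difference of a member or Myc gene changed sign under an alternative, nor did a difference that changed sign pass the threshold (lowest adjusted p = 0.550). Of the differences not called, in EG 2i Polr1a was -0.042 with only the compared arrays and -0.053 with the replicate block. Tcof1 was 0.053 with no sex term, 0.041 with only the compared arrays and 0.075 with quantile normalization, which gave Nop56 0.0026. Dkc1 was -0.024 with only the compared arrays, -0.033 with arrays centred on their medians and -0.037 with the replicate block. In ES 2i Nop56 was 0.022 with quantile normalization, 0.015 with centred arrays, 0.029 with array weights and 0.022 within batch 2, Dkc1 was -0.025 with array weights and Tcof1 -0.011 within batch 2. Within batch 1 Utp15 was 0.021, Rcl1 0.0079, Bysl 0.041, Wdr12 0.12 and Rrs1 0.077. Without each array in turn, in EG 2i Polr1a ranged from -0.034 to 0.16, Tcof1 from -0.10 to 0.047, Dkc1 from -0.066 to 0.067 and Nop14 from -0.0063 to 0.14, in EG 2is Polr1a from -0.095 to 0.047 and Nop14 from -0.041 to 0.11, and in ES 2i Nop56 from -0.022 to 0.026 and Dkc1 from -0.0069 to 0.11.

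Within batch 1, with 2 lines per group, 2 members were called in ES 2i against ES FCS, and 27 within batch 2. Without each array in turn the counts ranged from 15 (without EG FCS line 1) to 23 in EG 2i, 19 to 24 in EG 2is and 22 to 26 in ES 2i, all against FCS, and 0 to 2 between the sexes. All other comparisons stayed at 0. The share of all genes called in each of these alternative fits is not given here, so the counts describe the members only. The sex comparison gave 1 member with no batch term, 1 with arrays centred on their medians and 1 with the 25% of genes with the lowest levels left out.

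Lines of different groups share a number, and the labels do not say whether a shared number marks a pair. All 5 same-numbered ES pairs share sex and batch, and in EG all share the batch and 1 or 2 of 4 the sex. Correlations of same-numbered deviations ran from -0.01 to 0.24 in ES, with 1 of 5 lines closest to its own number, and 2 of 5 over 0.1, and from -0.56 to 0.32 in EG, so they were not treated as pairs. With a replicate block 23, 26 and 26 members were called lower in EG 2i, EG 2is and ES 2i, 2 higher in female lines, 0 between EG 2i and EG 2is and 0 in the difference of the EG and ES responses. The shares of all genes called with the block are not given here. The block was not fitted between EG and ES and was not run for the slope on Myc. Of single genes, 1323 values kept direction and side of the threshold, 20 changed sign, 41 passed it and 51 lost it, and without single arrays 984 kept both, 19 changed sign, 16 passed and 47 lost it. The cause of these changes was not tested.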
